A study of Caenorhabditis elegans with 2 samples.

Results

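The 41 genes described here encode splicing factors of 6 families named by prefix: the Sm proteins (snr, 7 genes), the LSm proteins (lsm, 7), the SR and SR-related proteins (rsp, 8), the Prp proteins (prp, 12), the Mog proteins (mog, 5) and the Smu proteins (smu, 2). They were selected by name from the 19973 protein-coding genes of the nuclear genome, with prp-21 and mog-2 left out. The rule used names and no measured value, but the group was proposed with earlier results of these data known. None lies on chromosome X. Binding of REPO-1 near each gene was read from ChIP-seq peak lists of whole Caenorhabditis elegans young adults, collected as a mix of both sexes at 53 h after L1 larvae were synchronised by starvation. There was 1 group with 2 biological replicates and no comparison group. All worms were of strain OP688, which has the unc-119(tm4063) allele on chromosome III and the integrated transgene wgIs688, expressing REPO-1 fused at its C terminus to GFP and FLAG, and chromatin was pulled down through GFP. The genotype label names no change at the endogenous repo-1 gene, and whole animals mix all tissues, so a peak cannot be placed in a cell type.

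REPO-1 is the worm counterpart of SF3A2. This protein belongs to the SF3a complex, through which the U2 snRNP engages the branch site of an intron. Sm proteins form a ring on most spliceosomal snRNAs and LSm rings bind U6 snRNA or act in mRNA decay. SR proteins bind exons and help recruit the spliceosome, and the Prp and Mog proteins include subunits of the snRNPs and DEAH-box helicases that drive the steps of splicing. Splicing largely takes place while RNA is still attached to the polymerase, so a splicing factor can be crosslinked to chromatin through nascent RNA or other proteins as well as to DNA, and ChIP-seq does not tell these apart.

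The sequences under the strongest member peaks show what kind of DNA was recovered. They are up to 300 bases around the replicated summits of the 6 members with the best ranks that are not on the first chromosome, in RefSeq's WBcel235 sequence, shortened where an annotated UTR began. Capitals mark coding exon bases, including the stop codon, and lower case marks introns or intergenic sequence. The first 3 sequences are from peaks at 3′ ends (lsm-7 at chrIV:10933860-10934110, rsp-8 at chrIII:11830468-11830728 and lsm-3 at chrIV:13388768-13389035, all plus strand) and end at the stop codon. The other 2 are from upstream peaks (mog-4 at chrII:14561665-14561964, minus strand, and the interval between the divergent genes rsp-1 and rsp-2 at chrII:11453052-11453351, printed on the plus strand).
lsm-7: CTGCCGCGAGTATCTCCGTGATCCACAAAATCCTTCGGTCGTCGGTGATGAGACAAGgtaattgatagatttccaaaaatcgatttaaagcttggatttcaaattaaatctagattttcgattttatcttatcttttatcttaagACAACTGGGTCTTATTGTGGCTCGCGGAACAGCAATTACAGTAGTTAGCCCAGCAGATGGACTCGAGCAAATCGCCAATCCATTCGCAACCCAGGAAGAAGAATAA
rsp-8: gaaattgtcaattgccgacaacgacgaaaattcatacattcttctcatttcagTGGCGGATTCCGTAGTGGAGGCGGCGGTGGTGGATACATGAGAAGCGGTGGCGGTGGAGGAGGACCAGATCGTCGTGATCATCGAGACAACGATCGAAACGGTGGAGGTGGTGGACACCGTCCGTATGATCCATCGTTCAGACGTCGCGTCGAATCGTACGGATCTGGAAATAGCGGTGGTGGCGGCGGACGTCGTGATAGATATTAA
lsm-3: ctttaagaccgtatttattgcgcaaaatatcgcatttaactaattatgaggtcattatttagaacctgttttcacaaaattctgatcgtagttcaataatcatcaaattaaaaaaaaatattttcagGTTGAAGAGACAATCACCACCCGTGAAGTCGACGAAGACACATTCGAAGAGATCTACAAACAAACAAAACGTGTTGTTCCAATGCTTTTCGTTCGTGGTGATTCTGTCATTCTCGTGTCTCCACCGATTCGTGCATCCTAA
mog-4: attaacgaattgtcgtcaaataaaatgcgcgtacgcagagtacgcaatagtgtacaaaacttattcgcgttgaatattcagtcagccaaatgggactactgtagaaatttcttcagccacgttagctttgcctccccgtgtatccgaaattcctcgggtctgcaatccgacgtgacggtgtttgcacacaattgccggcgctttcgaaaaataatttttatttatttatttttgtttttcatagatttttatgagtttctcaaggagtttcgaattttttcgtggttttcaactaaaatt
rsp-1 and rsp-2: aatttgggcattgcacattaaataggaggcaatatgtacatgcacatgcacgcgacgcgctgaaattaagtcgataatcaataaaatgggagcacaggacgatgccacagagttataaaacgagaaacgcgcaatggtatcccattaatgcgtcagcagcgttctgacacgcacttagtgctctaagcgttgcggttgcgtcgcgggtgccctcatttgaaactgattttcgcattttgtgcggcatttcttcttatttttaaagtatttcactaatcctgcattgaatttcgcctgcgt

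Each of the first 3 sequences crosses the last intron's 3′ splice site, where lower case turns to capitals for the final time. The replicated summit lay 4 bp past that site in lsm-7, 22 bp past it in lsm-3 and 96 bp past it in rsp-8. A second, weaker summit of rsp-8 (rank 1491), in the 3′ UTR, lay 296 bp past the site. The summits of replicates 1 and 2 were shifted from the first 3 positions by 52 and 93 bp in lsm-7 and 19 and 39 bp in lsm-3. In rsp-8 the shifts were -6 and 45 bp, where positive is downstream. Replicate 2 also had a stronger lsm-7 summit (rank 160) upstream of the site, so these positions are not exact to a few bp. Over all protein-coding genes, 153 replicated summits lay inside a gene with introns and in its 3′ window, at a median of 177 bp past the last 3′ splice site, and 39.2% of them were within 150 bp of it on either side. The 4 member summits are too few to set against that share.

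REPO-1 summits were found at 15 of the 41 splicing genes, 7 with one at the 5′ end and 10 with one at the 3′ end. A summit counted for the 5′ end from 500 bp upstream to 200 bp downstream of any transcript start, and for the 3′ end from 200 bp inside to 500 bp beyond any transcript end. The replicated list, which holds the 1789 strongest peaks of both replicates pooled, placed a summit at the 5′ end of 7 members (17.1%, Wilson 95% interval 8.53 to 31.3) against 3.49% of all protein-coding genes. At the 3′ end it placed one for 10 members (24.4%, interval 13.8 to 39.3) against 4.48%. Members with a summit at either end made up 36.6% against 7.31%. A summit was counted at both ends for lsm-3 and rsp-1 (4.88%, against 0.656% of all genes). For lsm-3 this was a single summit that fell in both windows, and only rsp-1 had separate summits at its ends. No test was made of these shares, because the gene group was proposed with earlier results of these data known, and the intervals cover counting error over genes only. The 3′ count depended on the replicate: the 1789 strongest peaks of replicate 1 alone gave 5 members (all genes 4.48%) and those of replicate 2 alone gave 10 (all genes 4.46%).

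**Figure D1:**
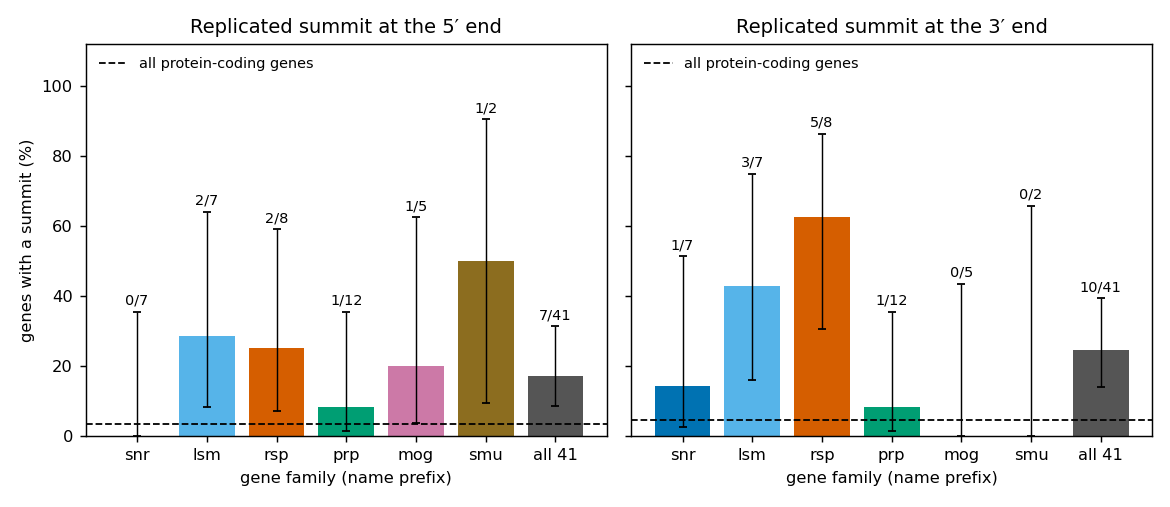
Share of genes in each family (percent, bars, with Wilson 95% intervals as lines) that had a replicated REPO-1 summit at the 5′ end (left) or the 3′ end (right); the fraction over each bar gives the genes counted and the dashed line all protein-coding genes, at 3.49% and 4.48%. The rsp bar at the 3′ end, with 5 of 8 genes, is the tallest of either panel, and the snr family had no gene with a 5′ summit.

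The peaks at members ran from strong to near the bottom of the list. They comprised 17 distinct summits, with ranks from 110 to 1663 of 1789, a median rank of 781 and signals from 135.0 to 392.9, where the whole list ran from 131.5 to 1217.6 with a median of 173.3. Of the 17, 10 had a signal above that median and 7 below it. The signal is the authors' value for a peak on a scale that is not stated, and it is used here only within a list. No member gene body had a replicated summit outside both windows. Only the 3′ summit of rsp-1 lay within 200 bp of a non-coding gene or pseudogene, which was true of 26.9% of all replicated summits.

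Of the 8 SR genes, 5 had a replicated 3′ summit (62.5%, interval 30.6 to 86.3, against 4.48% of all genes). At the 5′ end 2 of 8 had one (25%, against 3.49%), namely rsp-1 and rsp-2, which shared 1 peak. The strongest was at rsp-8, which encodes a protein related to the splicing regulator Transformer-2, with a signal of 289.1 and rank 252 (chromosome III, 11830512 to 11830685). In replicate 1 this peak had a signal of 194.2 and rank 177, and in replicate 2 a signal of 92.7 and rank 560. Its summit was in the last coding exon printed above, 111 bp before the end of the shorter transcript. A further summit of rank 1491 lay in the 3′ UTR of rsp-8, 200 bp downstream. Both rsp-8 summits also lay in the 3′ window of ntl-3, a gene that runs towards rsp-8, so they count for both genes.

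The other SR summits at 3′ ends lay beyond the annotated gene. At rsp-6, whose product resembles human SRSF3, the summit was 173 bp past the end with a signal of 184.7 (rank 781), and it ranked 699 in replicate 1 and 921 in replicate 2. This summit also lay 61 bp upstream of imp-3, a gene of the presenilin-like intramembrane proteases on the same strand, so it counts for both genes. At rsp-3, which encodes the counterpart of human SRSF1, the summit was 306 bp past the end (signal 140.0, rank 1513), within a coding exon of elpc-2, an Elongator subunit gene on the opposite strand. Its rank was 2735 in replicate 1 and 855 in replicate 2. At rsp-1 the summit was 156 bp past the end in an unnamed pseudogene (signal 145.6, rank 1365), with ranks of 2214 and 1415 in replicates 1 and 2. At rsp-5 it was 34 bp past the end (signal 144.7, rank 1385), with ranks of 3027 and 1362. The last 3 genes were thus beyond the 1789 strongest peaks of replicate 1 and within those of replicate 2. Replicate 1 alone gave 2 of 8 SR genes at the 3′ end (all genes 4.48%) and 2 of 8 at the 5′ end (all genes 3.27%). Replicate 2 alone gave 5 of 8 at the 3′ end (all genes 4.46%) and 3 of 8 at the 5′ end (all genes 3.41%).

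Weaker summits, below the replicated list, were listed in the 3′ windows of the remaining SR genes. The pooled list, which has no significance threshold and holds 30000 summits, placed a summit at the 3′ end of 8 of 8 rsp genes, against 30.5% of all protein-coding genes. Besides the 5 above they were rsp-7 (121 bp past the end, rank 2078), rsp-2 (130 bp past, rank 4179) and rsp-4, the gene of the SC35 counterpart (317 bp past, rank 17372). For rsp-4 the best 3′ ranks were 25515 in replicate 1 and 8118 in replicate 2, and the next gene, ccpp-6, lies 93 bp downstream. At the 5′ end the pooled list reached 7 of 8 against 25.5% of all genes, and beyond the shared rsp-1 and rsp-2 peak its summits had ranks of 2709 for rsp-6 and 11647 to 19815 for rsp-4, rsp-5, rsp-7 and rsp-8. Replicate 2 alone ranked the rsp-6 5′ summit 1531 (signal 63.0), within its 1789 strongest, and replicate 1 ranked it 8106. The gene without a pooled 5′ summit was rsp-3. A replicated peak near rsp-4 (rank 750) was 1302 bp upstream of it and 257 bp upstream of ndx-6.

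The peak shared by rsp-1 and rsp-2 sat between these divergent genes, which are 406 bp apart. Its summit was 161 bp upstream of rsp-1 and 246 bp upstream of rsp-2, with a signal of 214.3 and rank 543 (chromosome II, 11452983 to 11453418). Replicate 1 ranked it 908 with a signal of 107.8, and replicate 2 ranked it 548 with a signal of 93.6. Whether it belongs to one gene or both cannot be told from the list, and assigning each summit to its nearest 5′ end keeps rsp-1 alone.

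**Figure D2:**
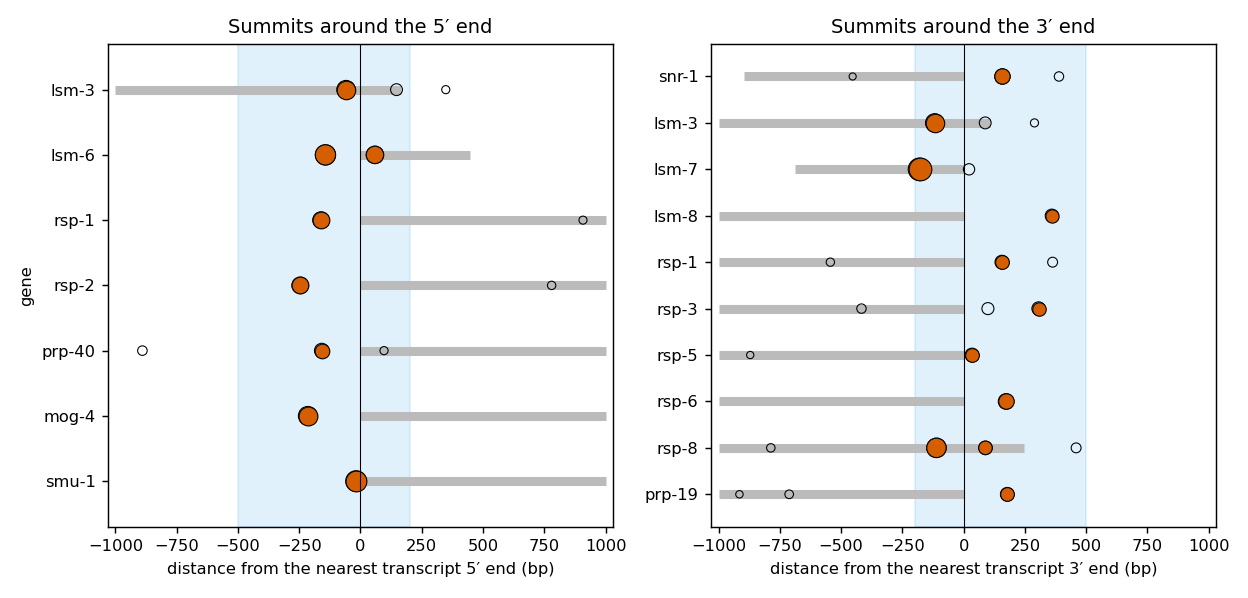
Summits near the ends of members with a replicated summit, as distance (bp, in the direction of transcription) from the transcript 5′ end (left) or 3′ end (right) nearest to the strongest replicated summit; grey bars are the gene, shading is the counting window, filled circles are replicated and open circles other pooled summits, with area proportional to signal. At the 3′ end, 7 of 10 genes had their strongest summit beyond the transcript end and lsm-3, lsm-7 and rsp-8 had it inside.

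The LSm genes had the strongest single peak of the group, and 4 of 7 had a replicated summit at either end (57.1%, against 7.31% of all genes). That peak was in lsm-7, a gene common to both LSm rings, with a signal of 392.9 and rank 110 (chromosome IV, 10933692 to 10934170). Its signal was 273.6 in replicate 1 (rank 72) and 96.9 in replicate 2 (rank 495). Replicate 2 also listed a stronger summit within the pooled peak region (rank 160, signal 152.4), 291 bp before the 3′ end and so outside the 3′ window. The summit lay in a coding exon, 180 bp before the 3′ end of the gene and 187 bp past the 3′ end of lgg-2, an Atg8-family autophagy gene that runs towards lsm-7. At lsm-3 the summit (signal 262.3, rank 323, with ranks of 308 and 267 in replicates 1 and 2) lay in the last coding exon, 118 bp before the end of a transcript. Because a short annotated transcript starts 59 bp downstream, the same summit also counts at the 5′ end, although it is 1714 bp from the outermost start.

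At lsm-6 the peaks were at the start of the gene. A summit 143 bp upstream had a signal of 313.9 and rank 207 (159 in replicate 1, 262 in replicate 2), and another 59 bp inside the gene had a signal of 232.6 and rank 439. Both also lay in the 3′ window of ubc-3, a ubiquitin-conjugating enzyme gene that ends 232 bp upstream on the same strand. The summit at lsm-8, the subunit that sets the U6 ring apart, was the weakest of the group: rank 1663, signal 135.0, 360 bp past the end and 193 bp inside the next gene, seu-1. It was the 1 member summit of 17 with no overlapping region among the 1789 strongest in either replicate. The remaining lsm-1, lsm-4 and lsm-5 had pooled 5′ summits at ranks of 5181, 23131 and 12694.

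Of the 7 Sm genes, none had a replicated 5′ summit, where 3.49% of all genes had one. The Wilson 95% interval for this count ends at 35.4%, and the rougher limit of 3 counts in 7 genes is 42.9%. At the 3′ end 1 Sm gene had a summit (14.3%, against 4.48%). That gene was snr-1, the SmD3 gene, with a summit 158 bp past its end, a signal of 181.1 and rank 813. In replicate 1 that peak had a signal of 95.3 and rank 1277, and in replicate 2 a signal of 87.6 and rank 645. The summit also lay in an intron of Y116A8C.43, a gene on the same strand that overlaps snr-1. In the pooled list 7 of 7 snr genes had a summit at either end, against 41.5% of all genes, but apart from snr-1 the ranks within the windows were 7548 or weaker. Outside both windows, a pooled summit inside snr-3 had a signal of 131.3 and rank 1798, just below the replicated list. It lay 313 bp inside from the 5′ end and 308 bp before the 3′ end, with ranks of 2820 and 1945 in replicates 1 and 2.

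The count for snr-4, which encodes SmD2, turned on the edge of the window. The replicated list has 1 summit upstream of it, of rank 132 with a signal of 363.7, at 561 bp from the 5′ end and so 61 bp outside the window (chromosome V, 11980066 to 11980501). Each replicate's own list has a pair of summits there. In replicate 1 they lay 394 bp upstream (rank 113) and 598 bp upstream (rank 149), and in replicate 2 at 378 bp (rank 200) and 601 bp (rank 236). Either replicate alone therefore counts snr-4 as having a strong 5′ peak. The pooled summit is 23 bp from the snRNA gene T11F9.15 and 250 bp past the 3′ end of rpt-1, a proteasome ATPase gene.

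Of the 19 prp, mog and smu genes, 3 had a replicated summit at the 5′ end (3.49% of all genes) and 1 at the 3′ end (4.48% of all genes). The strongest was at smu-1, the counterpart of the human spliceosome protein SMU1, with a summit 18 bp upstream, a signal of 330.5 and rank 179 (253 in replicate 1, 150 in replicate 2). It also lay 310 bp past the 3′ end of the neuropeptide gene nlp-15. Upstream of mog-4, the gene of the DEAH-box helicase related to Prp2, the summit was at 215 bp with a signal of 273.1 and rank 293 (572 in replicate 1, 197 in replicate 2). No other protein-coding gene had this summit in a window.

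The prp family, with 12 members, had a summit at 1 gene at each end (8.33%, against 3.49% of all genes at the 5′ end and 4.48% at the 3′ end). At prp-40, which encodes a U1-associated protein, it lay 158 bp upstream (signal 164.7, rank 1002, with ranks of 1309 and 882 in replicates 1 and 2), and the divergent gene clu-1 started 457 bp away. At prp-19, the gene of a ubiquitin ligase of the spliceosome, it lay 178 bp past the 3′ end (signal 143.9, rank 1403, with ranks of 2590 and 1103). That summit is inside the 5′ UTR of ulp-1, the SUMO protease gene downstream, 44 bp from its start. The prp-31 gene, of a U4/U6 snRNP protein, had a summit 158 bp past its end that missed the replicated list in the pooled data (rank 2192) and ranked 3308 in replicate 1 and 1152 in replicate 2. The gene of the U5 core protein, prp-8, had a summit 317 bp upstream at a pooled rank of 4971.

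A pooled summit at either end was listed for 36 of the 41 splicing genes (87.8%, against 41.5% of all genes). The genes without one were prp-4, prp-9, prp-17, mog-3 and smu-2. Of these, prp-9 encodes the worm counterpart of SF3A3, a direct partner of REPO-1 in SF3a. For mog-3 a weak summit was listed in each replicate alone, at a rank of 14443 at the 3′ end in replicate 1 and of 20675 at the 5′ end in replicate 2. The other 4 had none at either end in either replicate's list. Outside the windows, mog-3 had pooled summits of rank 3742 in the gene body and rank 5905 at 544 bp past its 3′ end. Within the windows, the pooled summits of the helicase genes mog-1 (Prp16) and mog-5 (Prp22) had ranks of 29298 and 17693. A stronger pooled summit near mog-1 (rank 2251, signal 121.5) lay 509 bp past its 3′ end, just outside the window. Sequencing depth is unknown, so an empty window says that no summit was listed there and not that REPO-1 was absent.

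**Figure D3:**
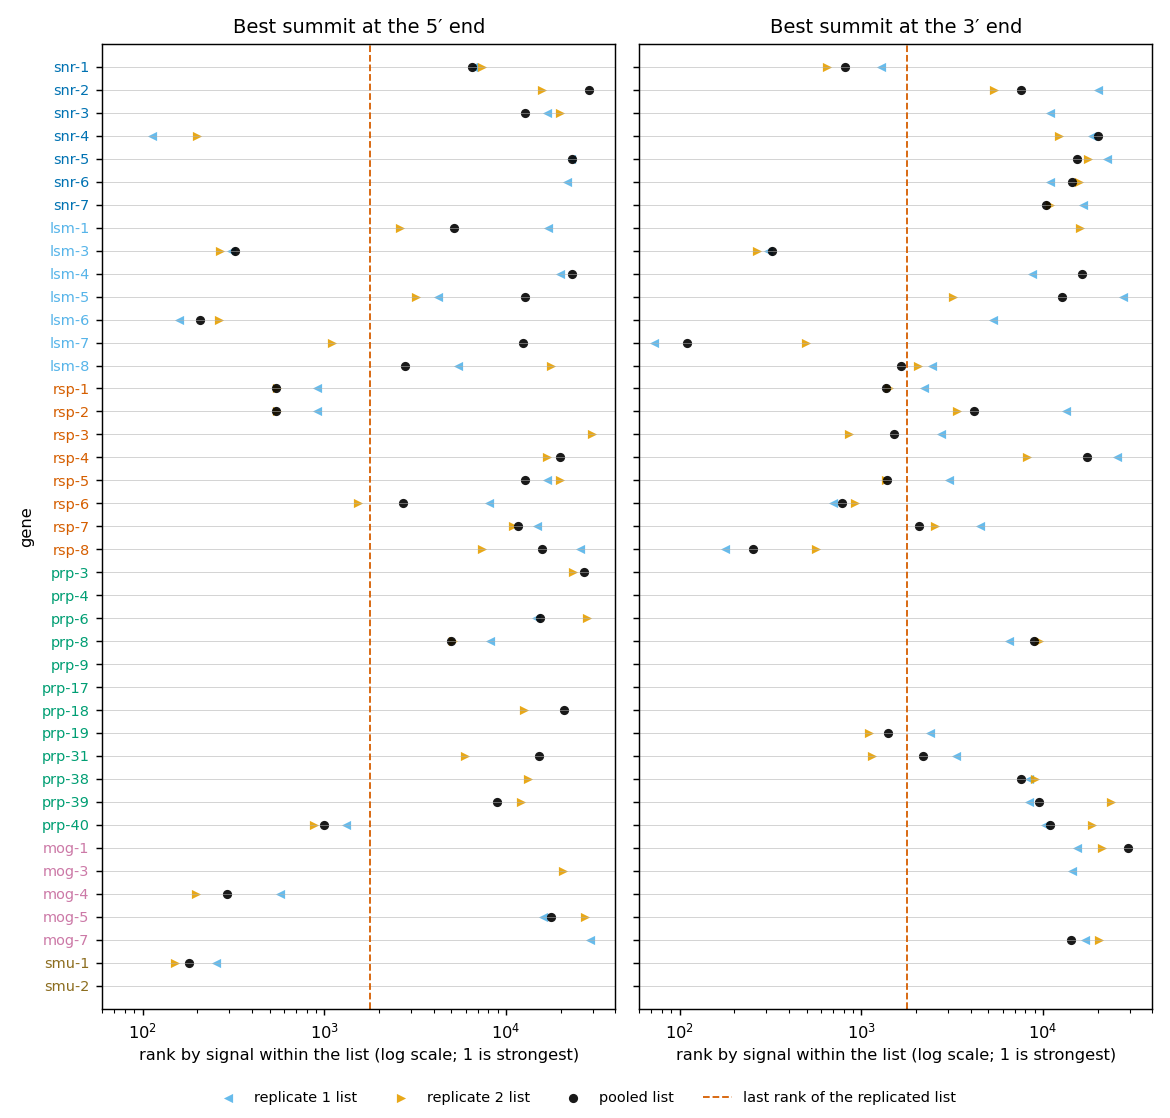
Rank of the best summit at the 5′ end (left) and the 3′ end (right) of each of the 41 genes in the pooled list and in each replicate's list, on a log scale where 1 is strongest; label colours mark families and the dashed line is rank 1789, the last of the replicated list. Genes without a symbol had no summit in that window, 6 of 8 rsp genes have a pooled 3′ rank within 2500, and snr-4 has replicate symbols but no pooled symbol in the left panel.

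Member peaks overlapped the strongest peaks of replicate 2 more often than those of replicate 1. Of the 17 distinct summits, 12 (70.6%) had a region among the 1789 strongest in replicate 1 that touched them by 1 bp or more, 16 (94.1%) had one in replicate 2, and 12 in both. For all 1789 replicated peaks these shares were 83.2%, 77.4% and 64.3%. The 5 that missed in replicate 1 were the 3′ summits at rsp-1, rsp-3, rsp-5, prp-19 and lsm-8, with replicate 1 ranks from 2214 to 3027.

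Extending the count to weaker peaks kept the members above all genes at both ends. Up to pooled rank 5000, a 5′ summit was listed for 24.4% of members and 7.51% of all genes, and a 3′ summit for 31.7% and 10.5%. For the rsp genes these shares were 37.5% at the 5′ end and 87.5% at the 3′ end. Over the whole pooled list the members reached 68.3% at the 5′ end and 65.9% at the 3′ end, against 25.5% and 30.5%. Member genes had a median length of 1941 bp, and all protein-coding genes 2027 bp.

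**Figure D4:**
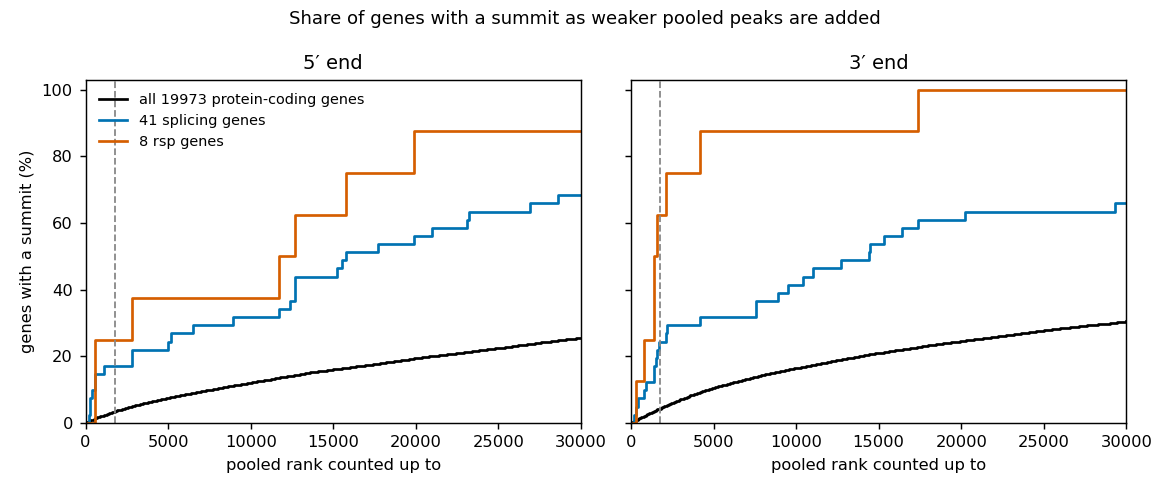
Share of genes (percent) with a pooled summit at the 5′ end (left) or 3′ end (right) as peaks are added from the strongest (rank 1) to the weakest (rank 30000), for all protein-coding genes, the 41 splicing genes and the 8 rsp genes; the dashed line is rank 1789. The rsp line at the 3′ end stands at 75% by rank 2500, where all genes stand at 6.04%.

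Positions within the windows were set beside those of all genes. The best 5′ summit was upstream of the nearest transcript start in 7 of 7 members, at a median of 158 bp upstream. Over all 697 genes with one, the share upstream was 80.8% and the median 166 bp. Among the 7, rsp-1 and rsp-2 share a single summit. The lsm-3 summit is in a coding exon, upstream of a short transcript only and 1714 bp inside the outermost start. The best 3′ summit was beyond the end in 7 of 10 members, at a median of 157 bp past it, and over all 894 genes in 87.5%, at a median of 209 bp. Of the 10 members with a 3′ summit, lsm-8, rsp-6 and prp-19 had it inside the 5′ window of the following gene as well. Without such summits 7 remained (17.1%, against 3.11% of all genes counted the same way). That count kept 5 summits that also lay in the 3′ window of a convergent neighbour, and so count for both genes. They were 229 bp past the neighbour's 3′ end at lsm-3, 187 bp at lsm-7 and 434 bp at rsp-5. At rsp-8 they were 395 and 195 bp past the 3′ end of ntl-3.

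Simple sequence features were searched in the 201 bp around each summit, on both strands. The letters GAGAG, a GA-rich run, were present at 3 of 17 member summits (17.6%) against 42.0% of all replicated summits. That share differed by position, with 28.6% for replicated summits in 3′ windows only and 55.1% for those in 5′ windows only. Of the 17 member summits, 11 were in a member's 3′ window. The splice acceptor letters TTTTCAG were present at 2 of 17 (11.8%), lsm-3 and smu-1, against 13.5%, and in the lsm-3 sequence above they end the last intron. The poly(A) signal letters AATAAA were present at 6 of 17 (35.3%) against 31.2%, and the splice donor letters GTAAGT at 0 of 17 against 4.75%. Median GC content was 39.3% at member summits and 42.3% at all replicated summits, with 38.3% in 3′ windows only and 44.8% in 5′ windows only. Among member summits the highest was 59.7% at rsp-8 and the lowest 28.9% at the upstream summit of lsm-6. With 17 summits these shares are a description, and a match is not a binding site.

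Other spliceosome genes had replicated summits at shares nearer to those of all genes. From a list of 50 further splicing genes, 47 matched the annotation. A replicated summit was at the 5′ end of 3 of them (6.38%, against 3.49% of all genes) and at the 3′ end of 2 (4.26%, against 4.48%). They were the helicase gene ddx-23 (106 bp upstream, rank 678), sftb-1, the counterpart of SF3B1 (434 bp upstream, rank 1525), and syf-2 (416 bp upstream, rank 1779) at 5′ ends, and hrpa-1, an hnRNP A1 gene (163 bp past the end, rank 236), and the helicase gene hel-1 (113 bp past, rank 1186) at 3′ ends. In the pooled list their shares were above those of all genes and nearer to those of the 41 members. There 57.4% had a 5′ summit, against 25.5% of all genes and 68.3% of the members. A 3′ summit was listed for 53.2%, against 30.5% of all genes and 65.9% of the members. The difference between these genes and the 6 families was not tested.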

How the data were processed

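The deposited files were ChIP-seq peak lists on ce11, which is WBcel235: 1 list per replicate, a pooled list and the replicated list. Per the text files deposited with each sample, the replicated list was derived from the other 3 by IDR, a filter on reproducibility. The replicate and pooled lists have no threshold and hold 30000 summits each, and the replicated list consists of the 1789 strongest pooled peaks. The signal of each peak was deposited by the authors on a scale not stated, and the lists also give a −log10 q-value deposited by the authors, tied at its maximum for 1354 replicated peaks. Ranks use the signal. For the aligner, the caller, versions and depth, the sources used here give nothing.

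Summits (start plus offset, made 1-based) were set against the transcripts of Ensembl release 115, and sequence was read from RefSeq's copy of WBcel235. Lists on ce10 were not used. Members, windows and lists were chosen with earlier results of these data known, so shares are described beside those of all protein-coding genes, with no test. Named were all members with a replicated summit in a window, those with no pooled summit at either end, and the 4 other spliceosome genes with the strongest replicated summit; syf-2 and the near misses (snr-4, rsp-4, prp-31, prp-8, prp-9 and others) were added after their values were seen. Alternatives were other windows, the outermost ends, the nearest 5′ end, stronger peaks, region overlap, ranking by q-value, and each replicate alone. Window counting was tested on simulated summits. Python 3.11.15, numpy 2.4.6, pandas 2.3.3, scipy 1.17.1 and matplotlib 3.10.9 were used.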

Additional observations from a re-analysis of the deposited data

How the results depend on the processing

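Of 35 alternative counts over the 41 genes, 30 stayed within 1.5 times the reported count and 5 did not. The 3′ count of 10 members became 6 in a window from 100 bp inside to 200 bp beyond the end (all genes 2.02%), and 5 with the stronger peaks of the list, from its median signal upwards (all genes 2.33%). Leaving out 1 replicate gave 5 to 10 members at the 3′ end (all genes 4.46% to 4.48%) and 8 to 10 at the 5′ end (all genes 3.27% to 3.41%). At either end it gave 12 to 16 (all genes 7.11% to 7.18%). For the pooled list it gave 24 to 30 at the 5′ end (all genes 25.5% to 26.2%) and 27 to 30 at the 3′ end (all genes 30.1% to 30.8%). Without replicate 2 the 3′ summits at rsp-1, rsp-3, rsp-5, prp-19 and lsm-8 were lost, and the cause was not tested. The 5′ count of 7 became 4 of 32 members when genes that follow a same-strand neighbour by less than 500 bp were set aside; lsm-3, lsm-6 and smu-1 drop out by construction (all genes 2.96%). The pooled 5′ count of 28 became 18 in the upper part of that list by signal, cut at its median (all genes 16.0%). Counting the outermost 3′ end only was an alternative added after the data were seen, and gave 9 (all genes 4.32%). In each of the 35 alternatives the members' share was above that of all genes. No paired analysis was possible because there was 1 group.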
